A study of Homo sapiens with 20 samples.

Results

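The IgG clusters are the crosslinked RNA segments that were called in libraries made with a control antibody instead of an antibody to IGF2BP3. All rows of the 5 cluster lists made with control IgG were taken, with no filter, which gave 440 clusters of the 412563 in the series. The 15 lists made with the anti-IGF2BP3 antibody held the other 412123. By the library each list is attached to, the IgG lists held 93 clusters (PBS), 180 (arsenite), 43 (DMSO), 33 (tunicamycin 1 h) and 91 (tunicamycin 4 h).

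HCT116 is a human colorectal carcinoma cell line. All cells carried the Tet-OsTIR1-PURO construct, which codes for a plant auxin receptor used in protein degradation systems, and the labels name no degradation agent. Every culture received 100 µM 4-thiouridine 15 h before collection. The treatments were PBS for 2 h, sodium arsenite at 250 µM for 2 h, DMSO for 4 h, and tunicamycin (TM) at 5 µg/mL for 1 h or 4 h. The protocol text writes arsenate where the titles write arsenite. Each treatment had 3 anti-IGF2BP3 libraries and 1 IgG library.

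IGF2BP3 is an RNA-binding protein of messenger RNAs that is largely silent in adult tissue and is made again in many tumours. In PAR-CLIP, cells incorporate 4-thiouridine into new RNA, long-wave ultraviolet light crosslinks it to bound protein, and the crosslinked base is later read as C, so T-to-C conversions mark contact sites. Control IgG has no intended target. It is carried through the same steps to show what is recovered without one, and abundant structured RNAs such as tRNAs and ribosomal RNAs are often met in such controls.

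A pair of lists goes against its labels. The list attached to the PBS IgG library carries the arsenite name, and the list attached to the arsenite IgG library carries the name of the control. The attachment was followed here. The PBS IgG library had 17503 gene counts and 93 clusters, or 5.31 clusters per 1000 gene counts. The arsenite IgG library had 9366 gene counts and 180 clusters, or 19.2 per 1000. With these lists exchanged, the values were 10.3 and 9.93 per 1000, while the DMSO, TM 1 h and TM 4 h IgG libraries had 5.47, 5.52 and 7.88. Which assignment is right was not tested, so no difference between PBS and arsenite IgG clusters is read below.

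The IgG libraries were shallow. Their gene counts ran from 5981 to 17503, against 130478 to 1568406 in the anti-IGF2BP3 libraries. Clusters per 1000 gene counts were 8.68 ± 5.99 (SD, n = 5) with IgG and 38.9 ± 3.65 (SD, n = 15) with anti-IGF2BP3, and the IgG value was below all 3 anti-IGF2BP3 values in 5 of 5 treatments. The adjusted p was 0.00171 in an exact permutation test of the antibody label within treatments, two-sided, adjusted over 14 results. With 1024 arrangements the smallest raw p this test can give is 0.000977. Among the anti-IGF2BP3 libraries, clusters per 1000 gene counts were also lowest, at 27.4, in the shallowest, PBS replicate 2. The part of depth in the difference between antibodies was not tested. Nothing in the labels says that libraries of a group came from separate cultures, so p-values measure the spread between these libraries, which may be technical.

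A few short RNAs recurred from list to list. The IgG clusters merged into 273 regions, of which 6 were in all 5 IgG lists, 12 in 4, 20 in 3, 54 in 2 and 181 in a single list. The sequences below are those of the tRNA, mitochondrial and unannotated regions among the 12 most shared, each the single most-read IgG cluster of its region. They are printed 5′ to 3′ on the transcribed strand of GRCh38 as the lists give it, with T for U, and the bases past the annotated 3′ end of the tRNA gene are in capitals.
TRX-CAT1-1, initiator methionine tRNA, chr1:153671282-153671324, plus strand: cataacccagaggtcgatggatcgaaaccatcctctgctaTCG
TRX-CAT1-5, initiator methionine tRNA, chr6:27332982-27333023, minus strand: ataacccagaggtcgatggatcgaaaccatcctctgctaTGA
No gene, chr6:56322844-56322885, plus strand: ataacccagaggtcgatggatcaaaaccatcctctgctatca
TRK-TTT3-2, lysine tRNA, chr1:204507027-204507068, minus strand: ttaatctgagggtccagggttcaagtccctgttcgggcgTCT
TRG-CCC2-2, glycine tRNA, chr16:636733-636775, minus strand: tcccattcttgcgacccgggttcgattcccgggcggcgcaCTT
TRR-CCT2-1, arginine tRNA, chr17:75034428-75034471, minus strand: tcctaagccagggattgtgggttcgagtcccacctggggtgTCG
TRNV, mitochondrial valine tRNA, chrM:1614-1654, plus strand: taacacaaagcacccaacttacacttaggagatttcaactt
TRNE, mitochondrial glutamate tRNA, chrM:14692-14727, minus strand: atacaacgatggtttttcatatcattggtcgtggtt

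The 5 nuclear tRNA sequences stop 3 bases past the end of their genes and hold only the 3′ part of the tRNA. The initiator methionine tRNA, which starts protein synthesis at AUG, appears in 2 gene copies, TRX-CAT1-1 and TRX-CAT1-5. The unannotated chromosome 6 sequence matches the TRX-CAT1-1 cluster at 40 of 42 aligned bases. Gene names are those of RefSeq on GRCh38.p14, which lists these positions without exons and, for tRNA genes, without strand.

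Nearly all IgG clusters lay where anti-IGF2BP3 clusters lay. An overlap of at least 1 nt on the same strand with any of the 15 anti-IGF2BP3 lists was found for 88 of 93 PBS clusters, or 94.6% (exact Clopper-Pearson 95% interval 87.9 to 98.2%). For the other lists the counts were 178 of 180 (98.9%, 96.0 to 99.9%) in arsenite, 42 of 43 (97.7%, 87.7 to 99.9%) in DMSO, 33 of 33 (100%, 89.4 to 100%) in TM 1 h and 90 of 91 (98.9%, 94.0 to 99.97%) in TM 4 h. These intervals cover counting error only. They overlap, and clusters at neighbouring copies of a tRNA are not independent.

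Against the 3 anti-IGF2BP3 lists of the same treatment the shares were 80.6% (71.1 to 88.1%) in PBS, 97.2% (93.6 to 99.1%) in arsenite, 93.0% (80.9 to 98.5%) in DMSO, 100% in TM 1 h and 98.9% in TM 4 h. The PBS share was the lowest. With the conflicting lists exchanged, PBS had 96.1% and arsenite 87.1%, so the lower value stayed with the list of 93 clusters. Requiring 10 nt or 50% of the cluster, or allowing either strand, left each of these 10 shares within its interval.

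In all, 255 of the 440 clusters overlapped every one of the 15 anti-IGF2BP3 lists and 9 overlapped none. No like count is given here for anti-IGF2BP3 clusters, so whether these counts or the shares above are unusual was not tested. Of the 137 clusters in protein-coding genes, 118 were in all 15 lists, and of the 68 mitochondrial clusters 51 were, with a minimum of 11 lists. Of the 125 clusters in nuclear tRNA genes, 39 were in all 15, with a median of 14 lists and a minimum of 2. The plot of overlap by RNA class shows the same pile at 15 lists and the tail of tRNA and other clusters below it.

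**Figure D1:**
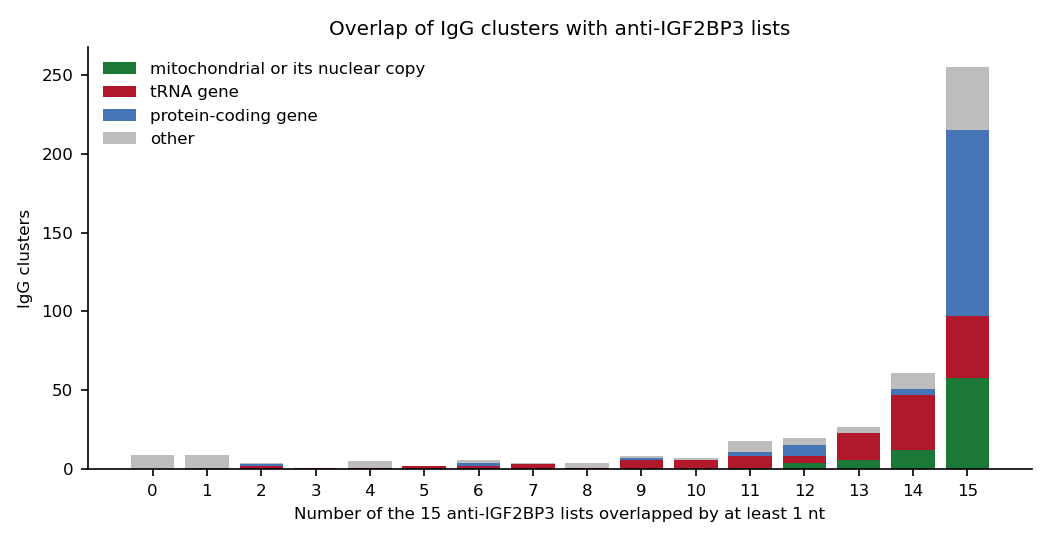
Number of IgG clusters (vertical axis) by how many of the 15 anti-IGF2BP3 lists they overlap by at least 1 nt on the same strand, with RNA class in colour. The tallest bar, at 15 lists, holds 255 of 440 clusters, and the bar at 0 holds 9.

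A library's clusters overlapped each other anti-IGF2BP3 library by 86.3 ± 6.85% on average with IgG (SD, n = 5) and by 58.7 ± 17.7% with anti-IGF2BP3 (SD, n = 15; adjusted p = 0.00870, exact permutation test). The IgG value was above all 3 anti-IGF2BP3 values in 4 of 5 treatments. The share was lower for longer lists: it ran from 30.5% in the largest anti-IGF2BP3 list, of 63287 clusters, to 91.1% in the smallest, of 3579. Each anti-IGF2BP3 list was also reduced to its most-read clusters, as many as the IgG list of its treatment held. The direction then turned, and the difference was -13.2 percentage points (adjusted p = 0.00342, exact permutation test). These most-read clusters had median lengths of 124 to 601 nt, against 39 to 45 nt with IgG. Scored against the full lists, 97.2 to 100% of them overlapped on average. The choice by reads and the antibody therefore cannot be told apart in this difference.

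The anti-IGF2BP3 clusters at these places were among the most read of their lists. For the 413 IgG clusters with an overlap in their own treatment, the best overlapping anti-IGF2BP3 cluster had a median read percentile of 97.7. The median was 99.8 for clusters in protein-coding genes, 99.2 for mitochondrial clusters and 91.9 for tRNA-gene clusters. The reads, length and rank of a cluster are related, and their part in this was not tested.

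The RNA classes differed widely between antibodies. Clusters were assigned to the mitochondrial genome, to a nuclear copy of a mitochondrial cluster of identical sequence, or to RefSeq tRNA, other small RNA, protein-coding, lncRNA or pseudogene positions, in that order. These classes were defined after the clusters had been seen, so apart from the mitochondrial share they are given with no test.

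Clusters in nuclear tRNA genes were 40 of 93 in PBS IgG (43.0%, exact 95% interval 32.8 to 53.7%), 43 of 180 in arsenite (23.9%, 17.9 to 30.8%), 17 of 43 in DMSO (39.5%, 25.0 to 55.6%), 5 of 33 in TM 1 h (15.2%, 5.11 to 31.9%) and 20 of 91 in TM 4 h (22.0%, 13.97 to 31.9%). In the 15 anti-IGF2BP3 lists the share was 0.318% at the lowest, 0.483% in the median and 0.866% at the highest. The IgG and anti-IGF2BP3 ranges did not overlap. Among the most-read anti-IGF2BP3 clusters, as many as the IgG list held, tRNA genes made up 0 to 1.099%. Those most-read clusters had median lengths of 124 to 601 nt, against 41 to 45 nt for anti-IGF2BP3 clusters in tRNA genes. The choice by reads and the antibody cannot be told apart in this comparison.

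By reads the tRNA-gene share was 64.7% in PBS IgG, 36.3% in arsenite, 44.0% in DMSO, 14.1% in TM 1 h and 26.7% in TM 4 h, against 0.425 to 1.17% with anti-IGF2BP3. Protein-coding genes held 17.2% of clusters in PBS IgG, 39.4% in arsenite, 27.9% in DMSO, 33.3% in TM 1 h and 29.7% in TM 4 h. With anti-IGF2BP3 they held 83.5 to 87.8%. Other small RNA genes (small nuclear, small nucleolar and the like) made up 0 to 10.99% of IgG clusters and 0.151 to 0.329% of anti-IGF2BP3 clusters.

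**Figure D2:**
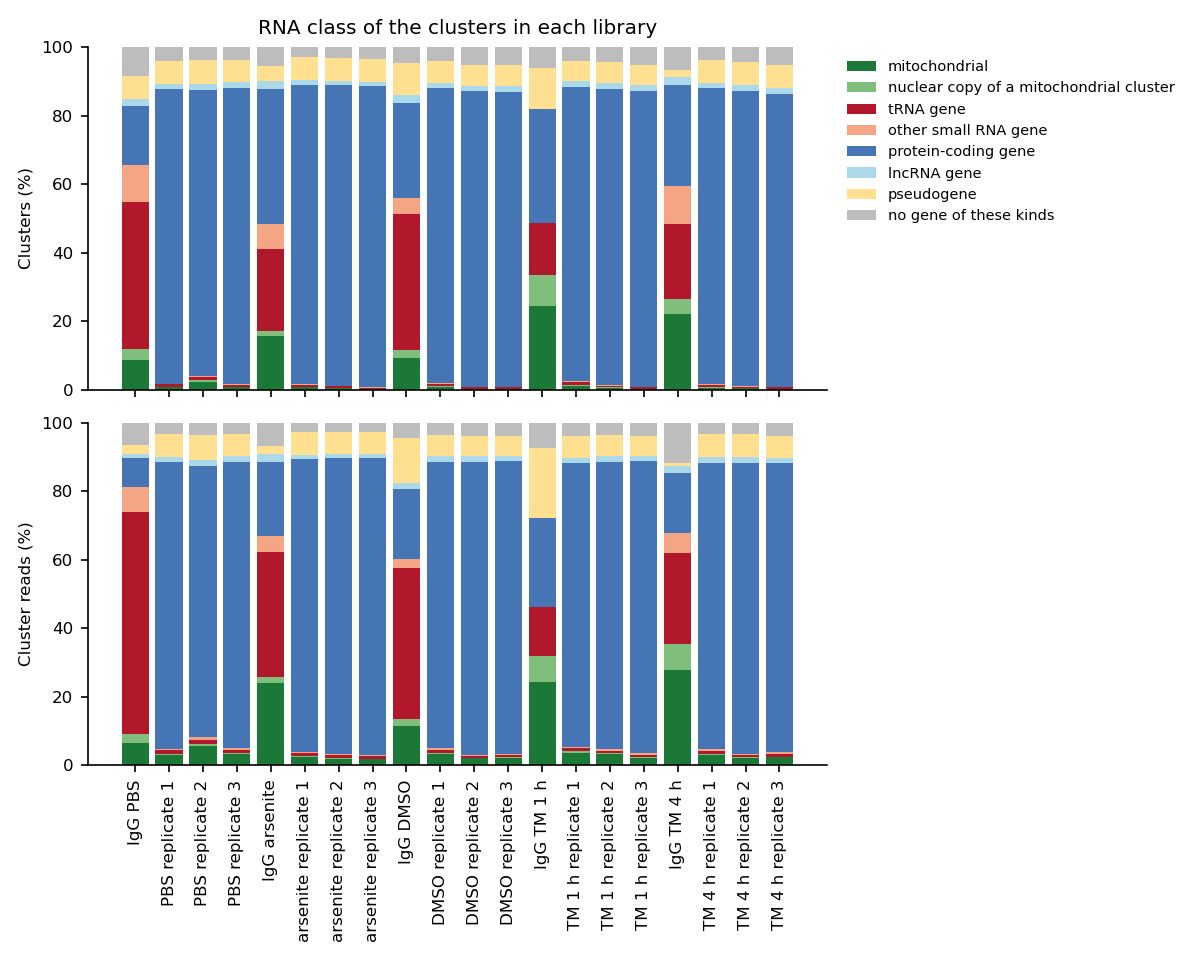
Share of clusters (top, %) and of cluster reads (bottom, %) by RNA class in each of the 20 libraries, ordered by treatment with the IgG library first. The red tRNA band fills 15.2 to 43.0% of the IgG cluster bars and under 1% of the anti-IGF2BP3 bars, where the blue protein-coding band fills over 83%.

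In raw reads, the IgG lists held 1.72 to 58.5% of the mean tRNA-gene reads of the 3 anti-IGF2BP3 lists of their treatment. In PBS the IgG list held 1062 reads in tRNA genes, which was 58.5% of the mean of the 3 anti-IGF2BP3 lists, while its 140 reads in protein-coding genes were 0.0977% of theirs. The tRNA percentage was 25.9% in arsenite, 4.49% in DMSO, 1.72% in TM 1 h and 5.91% in TM 4 h. For protein-coding genes it was 0.144%, 0.0150%, 0.0262% and 0.0339% in the same order. In each of the 5 treatments the tRNA percentage was the larger. With the conflicting lists exchanged, the tRNA percentages would be 55.3% in PBS and 27.4% in arsenite, and the protein-coding ones 0.416% and 0.0338%. The protein-coding values thus depend on the assignment. The anti-IGF2BP3 libraries of the TM and DMSO groups include the deepest ones, and the part of depth in these percentages was not tested.

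The 125 tRNA clusters came from 69 tRNA genes of 34 anticodon families, and all 69 genes also had a cluster in an anti-IGF2BP3 list. Initiator methionine (TRX-CAT) led with 387 reads in 9 clusters and all 5 lists. Lysine UUU (TRK-TTT) followed with 334 reads in 8 clusters, glycine CCC (TRG-CCC) with 217 in 10, and elongator methionine (TRM-CAT) with 201 in 5. Copies of a tRNA share sequence, so how reads were divided among them is uncertain.

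Conversion shares, the T-to-C events as a percentage of all T positions read, set these tRNAs apart from each other. Over the 5 IgG lists, the share was 17.0% for initiator methionine, 16.4% for TRN-GTT (asparagine), 9.24% for lysine UUU, 5.43% for glycine CCC and 2.18% for elongator methionine. In the TRX-CAT1-1 region the share was 16.05 to 19.6% with IgG and 16.6 to 21.5% with anti-IGF2BP3. TRK-TTT3-2 had 10.3 to 12.1% and 10.6 to 12.8%. Over all lists the ranges of the antibodies overlapped at both tRNAs. Within treatments, TRX-CAT1-1 conversion with IgG was below the mean of the 3 anti-IGF2BP3 lists in 5 of 5 and below all 3 in 3 of 5. With the conflicting lists exchanged, these counts were 5 of 5 and 2 of 5.

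Many tRNA clusters ended at the same place. Of the 125 IgG clusters in tRNA genes, 56 (44.8%) ended 3 or 4 nt past the annotated 3′ end of the gene, and 54 of them exactly 3 nt past it. Of 1814 anti-IGF2BP3 clusters in tRNA genes, 407 (22.4%) ended there. Per IgG list the share was 37.5% (15 of 40) in PBS, 51.2% (22 of 43) in arsenite, 47.1% (8 of 17) in DMSO, 40% (2 of 5) in TM 1 h and 45% (9 of 20) in TM 4 h. Per anti-IGF2BP3 list it ran from 10.8% in TM 4 h replicate 3, the deepest, with 250 tRNA clusters, to 41.9% in PBS replicate 2, the shallowest, with 31. The part of depth in the difference between antibodies was not tested. The IgG share was above all 3 anti-IGF2BP3 lists in 4 of 5 treatments, and the exception was PBS, where replicate 2 had 41.9% (13 of 31). With the conflicting lists exchanged it was 5 of 5.

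Mature tRNAs carry a CCA tail that is added after transcription and is not encoded in the gene. The capital letters in the sequences above are the genome's, and the letters of the reads themselves were not analysed here. A typical IgG cluster in a tRNA gene was 41 nt long and began at base 35 of a 73-nt gene (medians over 125 clusters), while 43 of 125 (34.4%) began past its midpoint. The anti-IGF2BP3 clusters were close to this, with medians of 43 nt and base 32, and 540 of 1814 (29.8%) past the midpoint. The gene's strand was taken from the cluster.

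**Figure D3:**
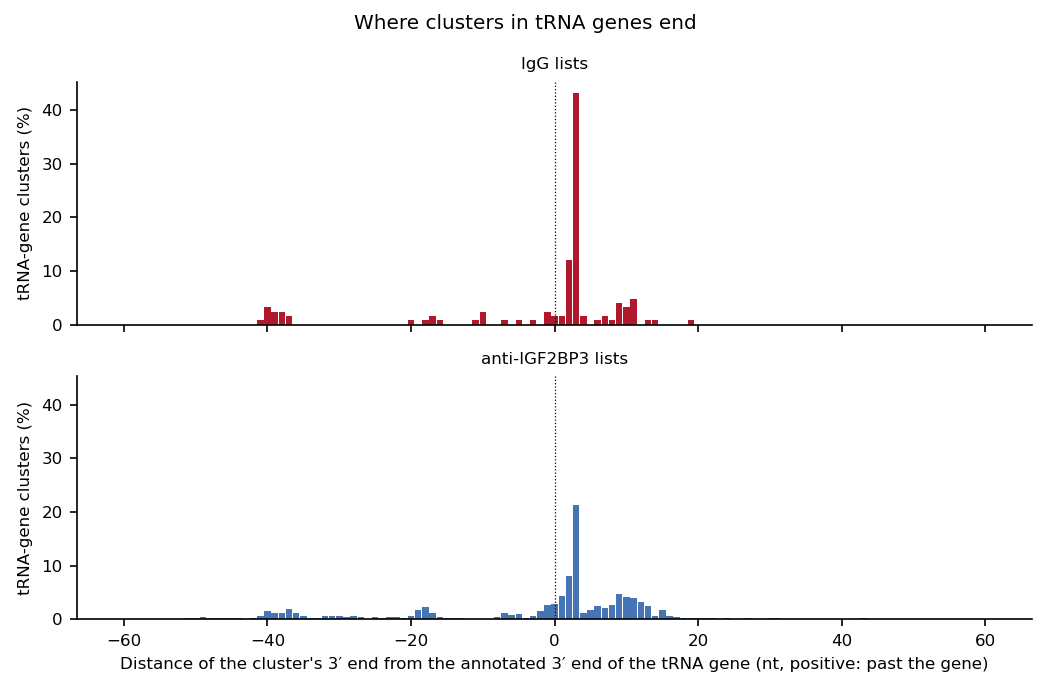
Distance in nt from the annotated 3′ end of a tRNA gene to the 3′ end of each cluster in it, as a percentage of such clusters, for the 5 IgG lists (top, 125 clusters) and the 15 anti-IGF2BP3 lists (bottom, 1814 clusters); ends more than 60 nt away are not drawn. The bar at 3 nt past the gene holds 43.2% of the IgG clusters and 21.2% of the anti-IGF2BP3 clusters.

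The 12 regions were chosen by the number of IgG lists and then by IgG reads, so a high share of IgG reads there follows from the choice and their values are a description. The reads given for a region are all reads of every cluster that overlaps it. Where anti-IGF2BP3 clusters were longer than the region, their counts can include reads from outside it. The TRX-CAT1-1 region had 79 reads in PBS IgG, 85 in arsenite, 26 in DMSO, 17 in TM 1 h and 45 in TM 4 h. The 15 anti-IGF2BP3 lists had 70 at the lowest, 218 in the median and 385 at the highest. PBS IgG lay among the 254, 70 and 168 reads of its own treatment, and the other 4 IgG lists lay below all 3 anti-IGF2BP3 lists of theirs, arsenite included (108, 187 and 247). Per 1000 cluster reads the region took 30.8 to 60.9 with IgG and 0.278 to 1.64 with anti-IGF2BP3.

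TRK-TTT3-2 had 101 reads in PBS IgG, 50 in arsenite, 20 in DMSO, no cluster in TM 1 h and 37 in TM 4 h. In PBS the 3 anti-IGF2BP3 lists had 57, 20 and 61 reads, so the IgG list attached to PBS held more than any of them. With the conflicting lists exchanged, PBS IgG would have 50 reads, and arsenite IgG 101 against 40, 75 and 133, so that IgG lay above all 3 in neither treatment. TRG-CCC2-2 had 65 reads in the PBS IgG list against 66, 41 and 79, which is inside their range. Exchanged, PBS IgG would have 48, still inside it, and arsenite IgG 65, below the 67, 128 and 181 of its 3 anti-IGF2BP3 lists. In TM 1 h, the shallowest IgG library, neither had a cluster.

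The mitochondrial TRNV region, at the border with the large ribosomal RNA gene RNR2, had 20 reads in PBS IgG, 40 in arsenite, 21 in DMSO, 7 in TM 1 h and 23 in TM 4 h. The anti-IGF2BP3 lists had 221 to 1395 reads, with a median of 582. Their longest cluster there was 69 to 264 nt per list, while the region spans 58 nt. These groups did not overlap in raw reads, and per 1000 cluster reads they did not overlap in the other direction, with 12.2 to 49.2 for IgG and 0.813 to 5.18 for anti-IGF2BP3.

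Among protein-coding genes, HMGA1, PABPC1 and CDKN1A were in all 5 IgG lists. HMGA1 codes for an architectural chromatin protein. Its region (chr6:34245866-34245942, plus strand) had 11 reads in PBS IgG, 25 in arsenite, 9 in DMSO, 8 in TM 1 h and 17 in TM 4 h. The anti-IGF2BP3 lists had 284 to 5603, with a median of 1248. Their clusters there were 170 to 1382 nt long, while the region spans 77 nt. The IgG reads were 0.294 to 1.70% of the treatment's mean anti-IGF2BP3 reads, while over all clusters IgG reads were 0.0625 to 0.953% of them.

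CDKN1A codes for the cell cycle inhibitor p21. Its region (chr6:36687171-36687308, plus strand) had 7 reads in PBS IgG, 13 in arsenite, 10 in DMSO, 10 in TM 1 h and 9 in TM 4 h, against 207 to 4889 with anti-IGF2BP3. The anti-IGF2BP3 clusters there were 199 to 1596 nt long, while the region spans 138 nt. PABPC1, the cytoplasmic poly(A)-binding protein, had 7, 17, 13, 7 and 17 IgG reads in the same order and 222 to 2233 anti-IGF2BP3 reads. PABPC1P4, a processed copy of it on chromosome 12, had 6 to 14 and 170 to 1549, and reads shared between PABPC1 and its copies cannot be told apart. For each of these regions the raw reads of the IgG lists were below those of all anti-IGF2BP3 lists. Per 1000 cluster reads the order turned or the ranges met: HMGA1 had 6.70 to 22.6 with IgG and 2.41 to 6.65 with anti-IGF2BP3, CDKN1A 4.27 to 28.2 and 1.12 to 4.85, PABPC1 4.27 to 30.4 and 1.49 to 5.20, and PABPC1P4 3.66 to 25.4 and 1.102 to 3.98.

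**Figure D4:**
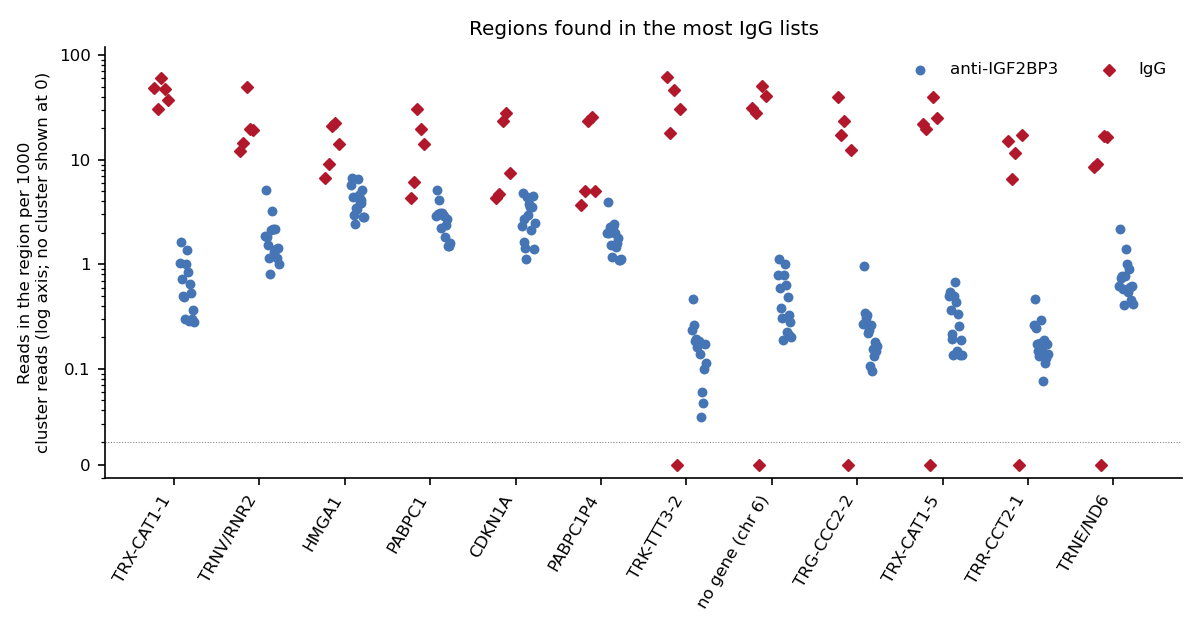
Reads of all clusters that overlap the 12 regions found in the most IgG lists, per 1000 cluster reads of the library, on a log axis. A library with no cluster is drawn at 0. Points are 5 IgG and 15 anti-IGF2BP3 libraries, and clusters can reach past the region. The regions were chosen by IgG lists and IgG reads. At TRX-CAT1-1 the points span 30.8 to 60.9 for IgG and 0.278 to 1.64 for anti-IGF2BP3, and at HMGA1 6.70 to 22.6 and 2.41 to 6.65.

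In all, 57 protein-coding genes or gene pairs held an IgG cluster, 40 of them in a single list. After the 3 above, PTP4A1, a phosphatase gene that overlaps LOC128125822, was in 4 lists with 102 reads. CYB5B, TUBA1B, EEF2 and ACTG1 were in 3, with 65, 59, 48 and 18 reads. EEF2 is the elongation factor that moves the ribosome along the mRNA, and TUBA1B and ACTG1 code for tubulin and actin. All clusters of these genes but ACTG1's, whose lowest was 12, overlapped all 15 anti-IGF2BP3 lists.

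Of the 3 most-read clusters of each IgG list, those in nuclear tRNA genes were 3 in PBS, 3 in arsenite, 1 in DMSO, 0 in TM 1 h and 1 in TM 4 h, or 8 of 15. In PBS they were TRK-TTT3-2 (101 reads), elongator methionine tRNA TRM-CAT1-1 (82) and TRX-CAT1-1 (79). In arsenite they were TRX-CAT1-1 (85), TRM-CAT1-1 (85) and alanine tRNA TRA-AGC3-1 (78). TRM-CAT1-1 had conversion shares of 1.19 and 1.69%, far below those of the initiator tRNA.

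In DMSO the most-read cluster, with 37 reads, lay at chr14:16055224-16055267 in the pseudogene entries LOC107987204 and LOC110467536 and overlapped 1 of the 15 anti-IGF2BP3 lists. In TM 1 h the first 3 clusters, with 29 reads each, lay there and at like sequences on chromosomes 2 and 22, each also overlapping 1 anti-IGF2BP3 list. All 3 had 13 conversion events and 234 or 235 non-conversion events, so the same reads may be listed 3 times. They were counted as deposited. The chromosome 2 cluster, in ANKRD30BL, was classed as protein-coding and held 29 of the 92 protein-coding reads of TM 1 h IgG. ANKRD30BL is 1 of the 57 protein-coding genes or gene pairs counted above. In TM 4 h the leader was an 18-nt cluster at chr1:179095412-179095429 with 64 reads, 2 conversion events and a conversion share of 0.781%.

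Clusters that overlapped no anti-IGF2BP3 list were few. TRIM52-AS1, an antisense lncRNA gene, held the most read of them, a 19-nt cluster with 39 reads and a conversion share of 1.71%. Small nucleolar and Cajal body RNAs, many of which guide modification of other RNAs, made up 4 of the 9. They were SNORA81 with 13 reads, SNORA73B with 11 and SCARNA16 with 11 in PBS, and SNORA23 with 6 in DMSO. TERC, the telomerase RNA, had 5 reads in arsenite. The rest were PLEKHA8P1 (10 reads), LOC105379364 (6 reads) and a chromosome 10 position with no gene (5 reads). Of the 9, 5 were in PBS, 2 in arsenite, 1 in DMSO, none in TM 1 h and 1 in TM 4 h. The small nucleolar and Cajal body RNAs lie within host genes, so host and guest reads cannot be told apart.

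Mitochondrial clusters were 8.60% of the PBS IgG list (8 of 93), 15.6% in arsenite (28 of 180), 9.30% in DMSO (4 of 43), 24.2% in TM 1 h (8 of 33) and 22.0% in TM 4 h (20 of 91). The anti-IGF2BP3 lists had 0.182% at the lowest, 0.543% in the median and 2.18% at the highest, and the groups did not overlap. The mean difference was 15.3 percentage points (adjusted p = 0.00171, exact permutation test), with IgG above all 3 anti-IGF2BP3 lists in 5 of 5 treatments. By reads it was 15.96 points, with 18.7 ± 9.28% (SD, n = 5) for IgG and 2.78 ± 0.964% (SD, n = 15) for anti-IGF2BP3 (adjusted p = 0.00171, exact permutation test).

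The mitochondrial difference shrank against the most-read anti-IGF2BP3 clusters, where it was 4.04 points by clusters (adjusted p = 0.129) and 5.97 points by reads (adjusted p = 0.0699, exact permutation tests). The number of mitochondrial clusters was 78 to 119 per anti-IGF2BP3 list, while the lists held 3579 to 63287 clusters. Within the library set that holds the PBS and arsenite libraries, the difference by clusters was 11.3 points, and in the set that holds replicate 3 and the IgG libraries of DMSO and TM it was 18.3 points. The first cannot reach a p below 0.0625 and the second none below 0.25 (exact permutation tests).

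The mitochondrial ribosomal RNAs led these clusters. RNR2, the large ribosomal RNA, held 13 of the 68 clusters and 461 of 1231 reads, and RNR1, the small one, 13 clusters and 236 reads. Clusters at mitochondrial tRNA genes included TRNV, TRNE, TRNF and TRNP, and messenger RNAs of COX1, ATP6 and COX3 held 4, 4 and 3 clusters. Conversion was low over the ribosomal RNAs and TRNV: 1.62% of T positions over the RNR2 clusters, 3.17% over RNR1 and 1.50% over TRNV alone. It was 4.27% over the 3 minus-strand clusters at COX1 and TRNS1, which held 84 reads. The messenger RNA clusters of COX1, ATP6 and COX3 had 5.63 to 7.28%. Over all 68 mitochondrial clusters the share was 3.31%, against 6.96% over all 440 IgG clusters.

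Some mitochondrial sequences were listed at nuclear copies too. In the 5 IgG lists, 14 nuclear clusters had exactly the sequence of a mitochondrial cluster of the same list. Over all classes 60 of 440 clusters shared their sequence with another cluster of their list, and 33 of these shared the read count as well. Keeping 1 cluster per distinct sequence left the mitochondrial difference on the same side of the threshold.

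Within the IgG lists, mitochondrial clusters differed from nuclear ones by -4.33 percentage points in conversion share (SD 0.651, n = 5, lower in 5 of 5 lists; sign-flip exact p = 0.0625, adjusted over 4 results p = 0.25). The p is the smallest that 5 lists allow. The share was 3.34% against 6.94% in PBS, 2.13% against 7.49% in arsenite, 5.20% against 9.38% in DMSO, 4.98% against 9.07% in TM 1 h and 4.40% against 8.85% in TM 4 h. In the 15 anti-IGF2BP3 lists the same difference was -2.85 points (SD 0.693), between -4.04 and -1.89.

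None of these 4 comparisons within IgG could pass, since 5 lists allow no sign-flip exact p below 0.0625. Their values are given as a description. Mitochondrial minus nuclear median length was -1.1 nt (SD 3.595, n = 5, sign-flip exact p = 0.69), while in the anti-IGF2BP3 lists it was 21.0 nt (SD 7.32, n = 15). For U content the IgG difference was -0.282 percentage points (SD 1.17, n = 5, sign-flip exact p = 0.69) and the anti-IGF2BP3 difference -5.32 (SD 1.27, n = 15). Whether these differences differ between antibodies was not tested. Median reads were higher in mitochondrial clusters by 0.58 on the log2 scale with IgG (SD 0.43, n = 5, sign-flip exact p = 0.125) and by 1.77 with anti-IGF2BP3 (SD 0.59, n = 15).

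IgG clusters were shorter and rested on fewer conversion sites. Median length was 39 nt in PBS IgG, 42 in arsenite, 40 in DMSO, 45 in TM 1 h and 42 in TM 4 h, against 45 to 52 nt with anti-IGF2BP3. The mean difference was -7.27 nt (adjusted p = 0.00171, exact permutation test), and IgG was below all 3 anti-IGF2BP3 lists in 5 of 5 treatments. Conversion locations per cluster averaged 2.99 ± 0.320 (SD, n = 5) with IgG and 5.95 ± 0.838 (SD, n = 15) with anti-IGF2BP3 (adjusted p = 0.00171, exact permutation test, below in 5 of 5). In 214 of the 440 IgG clusters there were 2 locations, the lowest number in any list. Among the anti-IGF2BP3 lists both measures were lowest in PBS replicate 2, with 42699 cluster reads, at 45 nt and 4.31 locations. In TM 4 h replicate 3, with 1384774, they were 52 nt and 7.24. The IgG lists held 354 to 2762 cluster reads, and the part of depth in these differences was not tested.

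The share of T positions converted was 6.69% in PBS IgG, 6.36% in arsenite, 8.94% in DMSO, 8.07% in TM 1 h and 7.55% in TM 4 h, and 7.58 to 8.81% with anti-IGF2BP3. The ranges overlapped and the mean difference of -0.582 points did not pass the test (adjusted p = 0.119, exact permutation test). IgG was above all 3 anti-IGF2BP3 lists in 2 treatments and below them in 3. With nuclear clusters only it was 0.164 points higher with IgG (adjusted p = 0.614, exact permutation test).

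Median reads per cluster were 12 in PBS IgG, 9 in arsenite, 8 in DMSO, 8 in TM 1 h and 9 in TM 4 h, against 7 to 9 with anti-IGF2BP3 (difference 1.27, adjusted p = 0.0463, exact permutation test). Without the PBS IgG library, and so without that treatment, the difference was 0.50 (adjusted p = 0.344, exact permutation test). Means over clusters turned the direction, at -2.93 reads (adjusted p = 0.108, exact permutation test).

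On average IgG clusters were richer in G and C and poorer in U and A. G was 21.3 ± 2.45% of bases with IgG and 17.5 ± 0.505% with anti-IGF2BP3, and U was 29.5 ± 0.509% and 32.1 ± 0.724% (SD, n = 5 and 15). Both gave an adjusted p of 0.00171 in the exact permutation test, with G above and U below all 3 anti-IGF2BP3 lists in 5 of 5 treatments. G was 23.9% in PBS IgG, 19.0% in arsenite, 23.9% in DMSO, 19.1% in TM 1 h and 20.5% in TM 4 h. C differed by 1.30 points (adjusted p = 0.00304) and A by -2.51 points (adjusted p = 0.00547, exact permutation tests). C was above all 3 anti-IGF2BP3 lists in 4 of 5 treatments. A was below them in 4 of 5 and above them in TM 1 h, at 26.5% against 25.0 to 25.5%.

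CAU, a short motif known in IGF2BP binding sites, was counted as CAT on the transcribed strand. It occurred 1.47 times per 100 nt in PBS IgG, 2.26 in arsenite, 1.64 in DMSO, 2.00 in TM 1 h and 1.91 in TM 4 h, and 2.26 to 2.63 times with anti-IGF2BP3. The difference was -0.600 per 100 nt (adjusted p = 0.00171, exact permutation test), with IgG lower in 5 of 5 treatments. GGAC, a common context of N6-methyladenosine, occurred 0.184 ± 0.103 times per 100 nt with IgG and 0.239 ± 0.0137 with anti-IGF2BP3 (SD, n = 5 and 15; adjusted p = 0.0444, exact permutation test). It was 0.348 in PBS IgG and 0.0646 in TM 1 h, so the IgG lists lay on both sides of the anti-IGF2BP3 range. Leaving out single libraries ended the GGAC call in 15 of 20 cases, among them the arsenite (-0.0436), DMSO (-0.0516), TM 1 h (-0.0285) and TM 4 h (-0.0542) IgG libraries.

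**Figure D5:**
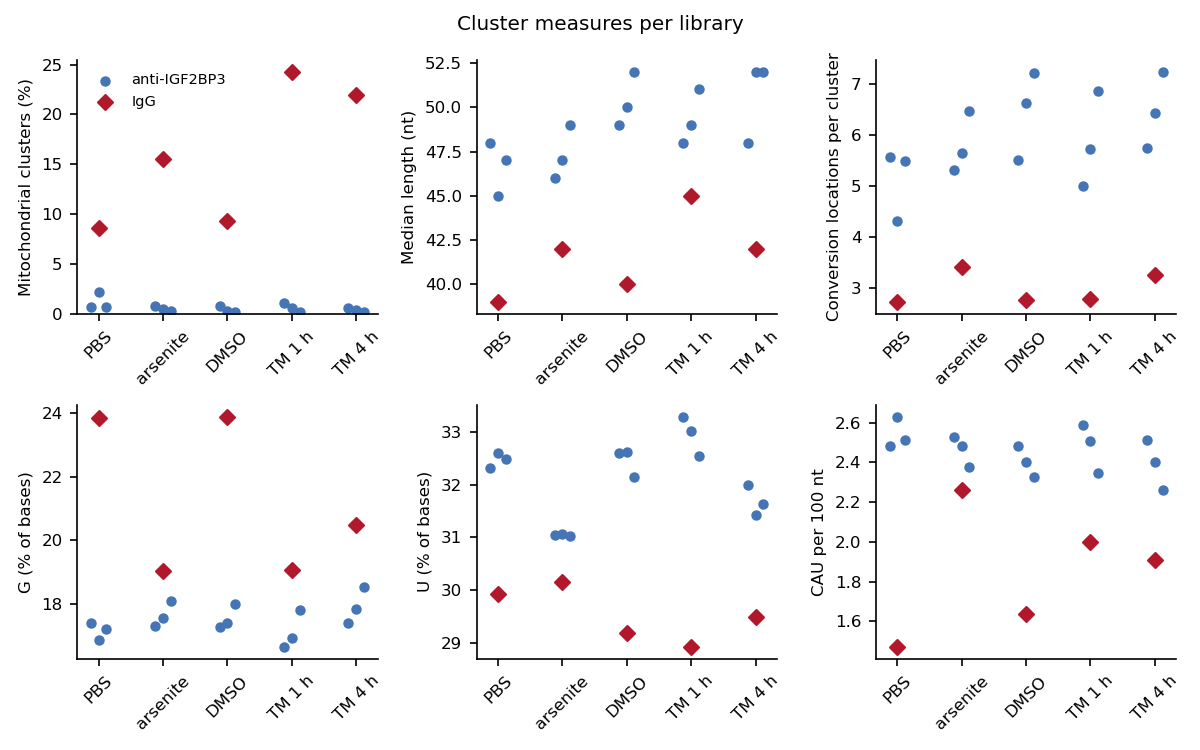
One panel per measure, each with the 5 treatments on the horizontal axis, 3 anti-IGF2BP3 libraries as blue points and the IgG library as a red diamond. The diamond lies above the points for mitochondrial clusters and G, and below them for length, conversion locations, U and CAU, in all 5 treatments; the vertical axes do not start at 0 except for the mitochondrial share.

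Some of these differences were not seen within protein-coding genes. When the lists were restricted to clusters in protein-coding genes, a choice made after seeing the data, CAU was 0.173 per 100 nt higher with IgG (adjusted p = 0.280), U 0.846 points higher (adjusted p = 0.100) and the G difference was -0.616 points (adjusted p = 0.190, exact permutation tests). The length difference was -3.63 nt (adjusted p = 0.0967, exact permutation test). Conversion locations still differed, by -2.22 per cluster, as did A, by -2.78 points (both adjusted p = 0.00293, exact permutation tests). The C difference was 2.55 points (adjusted p = 0.00293) and the GGAC difference -0.0756 per 100 nt (adjusted p = 0.0251, exact permutation tests). The IgG lists held 11 to 71 such clusters.

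Within library sets, length, G, U and CAU kept their directions. In the PBS and arsenite set the IgG difference was -6.50 nt in length, 4.04 points in G, -1.70 points in U and -0.635 CAU per 100 nt. In the set with replicate 3 it was -9.33 nt, 3.03 points, -2.89 points and -0.464. Median reads, conversion share and GGAC had opposite signs in the 2 sets: 2.83 and -0.333 reads, -1.83 and 0.504 points, and 0.00672 and -0.105 per 100 nt.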

How the data were processed

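Each library had 1 cluster list and 1 column of a gene table. The authors deposited clusters with whole-number counts of reads, conversion locations, conversion events and non-conversion events, and raw gene counts, per the file headers. Per the submitters' processing notes, builds GRCh38.p13 and hg38 and Bowtie 0.12.7, UMI-tools 1.1.1, Trimmomatic 0.30 and featureCounts 2.0.1 were used, with roles not given; the cluster caller is not given in the sources used here. How multiply mapped reads were placed is not stated either, and the RNase concentrations in the labels' protocols are not tied to libraries. All columns were matched by library name, with 0 left over. Coordinates were checked on 98 clusters inside RefSeq promoter windows, and 98 had the same sequence.

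Overlaps (at least 1 nt, same strand), measures and exact permutation tests were computed in Python 3.11 with numpy and pandas; the tests were tested on simulated data. A call is an adjusted p under 0.05, Benjamini-Hochberg over 14 results, or over 4 for mitochondrial against nuclear clusters. Regions named are the 12 in the most IgG lists (then by reads), the 3 most-read clusters per list and the 8 most-read clusters in no anti-IGF2BP3 list, with the remaining one named because the count is small; coding genes in 3 or more lists, tRNA families and mitochondrial genes were named after their values were seen. Sequences are shown only for tRNA, mitochondrial and unannotated regions. The members, classes and lists were chosen with earlier results of these data known. Alternatives are in the closing section.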

Additional observations from a re-analysis of the deposited data

Results flagged for a closer look

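Among the 5 IgG libraries, the arsenite library stood apart in clusters per 1000 gene counts, at 19.2 against 5.31 to 7.88 in the others. Its list is one of the pair whose names conflict with the samples they are attached to, and with these lists exchanged it would be 9.93. The PBS IgG library stood apart in median reads per cluster, at 12 against 8 or 9. A gap of this size is expected in about 1 in 20 groups by chance, and 14 measures were looked at.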

How the results depend on the processing

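Values are IgG minus anti-IGF2BP3. No paired analysis was possible because replicate numbers pair fewer than 2 libraries of any treatment's groups, each IgG group holding 1; libraries of the same treatment and set were instead compared within treatments. Against as many most-read anti-IGF2BP3 clusters (overlap still scored against full lists), mean overlap turned to -13.2 points and median reads to -539.6. Both of these follow a choice by reads. Conversion share turned to 0.118 points and clusters per 1000 gene counts to 8.49, the last by construction. Mitochondrial share (4.04 by clusters, 5.97 by reads), U (-0.374), C (1.20) and GGAC (-0.0184) no longer passed. Nuclear clusters only gave a conversion share of 0.164, GGAC of -0.0284 and median reads of 1.07. At least 10 reads gave C -0.0822, A -1.67, median reads 0.367 and overlap 19.3. At least 3 conversion locations gave conversion share 0.293, CAU -0.170 and median reads 1.13. The IgG library's own set gave GGAC -0.0603 and median reads 0.933. Means gave -2.93 reads, and the conversion share averaged per cluster passed at -1.34. Exchanging the conflicting lists moved the same-treatment overlap to 96.1% (PBS) and 87.1% (arsenite).

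The following alternatives were chosen after seeing the data. Protein-coding clusters only gave G -0.616, U 0.846, CAU 0.173, median reads -1.37 and length -3.63. The same with most-read anti-IGF2BP3 clusters gave G -3.54, U 3.45, CAU 0.522, median reads -1029, conversion share 0.0227, overlap -7.00 and clusters per 1000 gene counts 2.79. One cluster per sequence gave GGAC -0.0416 and median reads 1.00. Leaving out each library in turn gave GGAC from -0.0974 to -0.0285, median reads from 0.50 to 1.67 and conversion share from -1.004 to -0.144, each crossing the threshold, and mitochondrial minus nuclear length from -2.25 to 0.125. Without the DMSO IgG library the conversion share passed at -1.004, and without the TM 1 h IgG library the length difference was 0.125. The causes were not tested.

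With 33 to 180 clusters per IgG list, a share in 1 list carries an interval of many percentage points; whether depth accounts for regions without a cluster in TM 1 h was not tested.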
